A study of Mus musculus with 45 samples.

Results

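The genes described here encode the enzymes of sterol and fatty acid synthesis and the proteins that regulate them, followed in mouse splenic B2 cells as they became plasma cells in culture. Genes were taken by official symbol from the deposited expression tables. All 35 listed genes were found among the 28196 genes of those tables, and all 35 passed the filter on low values in both tables. They fall into 18 genes of the sterol pathway, 6 regulators and 11 genes of fatty acid synthesis. RNA was sequenced in 45 libraries that form 15 groups of 3. Resting wild type cells were taken at day 0. Wild type cells were then followed through days 4, 7 and 10 of a TLR culture or a BCR culture, and through days 4 and 7 of an LPS culture. The TLR culture held feeder cells carrying CD40L with LPS, IL-4 and IL-5. The BCR culture replaced LPS by antibody fragments to IgM and IgG, with feeders and cytokines as in the TLR culture. Feeder cells were taken out at day 2. From day 4 both cultures received IL-6, APRIL, amino acids and lipids, so every value of days 7 and 10 in these cultures comes from cells given lipids in the medium. What the LPS culture held beyond its name is not given in the sources used here. Cells of days 4 and 7 are labelled plasmablasts and those of day 10 plasma cells. The same day 4 and day 7 cultures were made from dEx1A mice, which lack exon 1A of Prdm1, the gene for the plasma cell regulator Blimp-1. Values per gene cannot check that deletion. Wild type LPS cells and all dEx1A cells came from females of 9 weeks, and the other wild type cells from males of 7 weeks, per the sample labels. Whether the 3 libraries of a group stem from different animals is not given in the labels, so p-values measure only the spread between these libraries, which may be technical.

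Sterol synthesis builds cholesterol from acetyl-CoA through mevalonate, isoprenoid units, squalene and lanosterol, and the isoprenoid units also feed protein prenylation, dolichol and ubiquinone. Fatty acid synthesis turns cytosolic acetyl-CoA into palmitate, which elongases lengthen and desaturases make unsaturated. Both pathways are driven by the SREBP transcription factors, encoded by Srebf1 and Srebf2: SCAP carries them to the Golgi for cleavage when membrane sterol is low, and the INSIG proteins hold them in the endoplasmic reticulum when it is high. B cells use both pathways when they enlarge, divide and build the endoplasmic reticulum needed for antibody secretion.

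Libraries held 15.13 to 35.53 M reads assigned to genes (median 23.22 M). The 15 libraries under 20 M reads, a division chosen after the values were seen, are those of wild type LPS and of dEx1A at day 7. In these 15, GC-rich genes stood above GC-poor genes by 0.73 to 1.69 on the log2 scale relative to the mean of all libraries, against -1.93 to 0.6 in the other 30. Summed levels below are in RPM, reads scaled to a common library total. B cell markers summed to 9701 to 10240 RPM at day 0. Macrophage markers summed to 13020, 15230 and 1364 RPM in BCR day 10 replicates 1, 2 and 3, to 214.6, 2848 and 454.7 in those of TLR day 10, and to 237.2 to 275 at day 0. Each of the 12 macrophage markers had reads in every day 10 library. In such bulk samples, fewer cells of a type and less RNA per cell cannot be told apart.

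Promoter sequences from RefSeq (GRCm38.p6) were matched by symbol for 28 of the 35 genes. They are not held for Fads1, Fdft1, Fdps, Scd1, Scd2, Sqle and Stard4. The windows below are the 250 bases upstream of the annotated start of 5 genes, shown because 4 of them (Hmgcs1, Idi1, Msmo1 and Acat2) belong to the sterol pathway that moved together in the values that follow, and because Fads2 changed most. Hmgcs1 makes HMG-CoA, Idi1 interconverts the isoprenoid units, Msmo1 demethylates sterols, Acat2 makes acetoacetyl-CoA, and Fads2 is the delta-6 desaturase of polyunsaturated fatty acids. The sequences run 5′ to 3′ on the gene's strand, from chr13:119690101-119690350 (plus strand), chr13:8885356-8885605 (plus strand), chr8:64733579-64733828 (minus strand), chr17:12960726-12960975 (minus strand) and chr19:10101504-10101753 (minus strand) in the order shown. Capitals mark matches to TCACNCCAC, a form of the sterol regulatory element to which SREBPs bind, and to CCAAT, the box to which NF-Y binds, on either strand.
Hmgcs1: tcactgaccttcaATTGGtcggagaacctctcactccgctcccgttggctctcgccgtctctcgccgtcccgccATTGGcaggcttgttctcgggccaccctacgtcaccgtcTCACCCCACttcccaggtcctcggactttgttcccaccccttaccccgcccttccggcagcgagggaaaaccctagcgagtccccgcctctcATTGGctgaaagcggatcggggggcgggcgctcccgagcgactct
Idi1: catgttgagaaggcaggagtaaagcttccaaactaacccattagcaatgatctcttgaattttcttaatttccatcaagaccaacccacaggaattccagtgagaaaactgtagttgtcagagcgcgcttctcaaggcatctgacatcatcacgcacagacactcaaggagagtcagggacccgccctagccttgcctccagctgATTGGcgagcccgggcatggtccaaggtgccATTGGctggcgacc
Msmo1: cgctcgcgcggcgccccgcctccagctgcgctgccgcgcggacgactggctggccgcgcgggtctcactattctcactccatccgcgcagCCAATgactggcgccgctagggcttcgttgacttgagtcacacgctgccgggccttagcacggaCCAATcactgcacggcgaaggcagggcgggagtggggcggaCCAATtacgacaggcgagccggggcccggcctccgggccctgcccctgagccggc
Acat2: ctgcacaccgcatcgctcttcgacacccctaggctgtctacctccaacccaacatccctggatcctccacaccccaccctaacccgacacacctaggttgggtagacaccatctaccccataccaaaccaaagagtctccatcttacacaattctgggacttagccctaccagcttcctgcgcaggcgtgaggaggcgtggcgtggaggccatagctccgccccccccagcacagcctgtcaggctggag
Fads2: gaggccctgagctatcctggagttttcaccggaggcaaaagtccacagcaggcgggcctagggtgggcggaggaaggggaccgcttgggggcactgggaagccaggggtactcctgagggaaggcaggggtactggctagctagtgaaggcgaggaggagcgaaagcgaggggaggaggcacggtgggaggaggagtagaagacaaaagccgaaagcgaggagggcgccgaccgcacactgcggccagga
Over windows of 300 bases, 250 before and 50 after the start, and over all windows of a gene, CCAAT occurred in 23 of the 28 genes (82.1%), against 41.1% of 27025 genes. It was found in 14 of 15 sterol pathway genes, 4 of 5 regulators and 5 of 8 fatty acid genes. TCACNCCAC occurred in Hmgcs1 alone of the 28, starting 137 bases before the annotated start, against 1.44% of all genes. CACGTG, the E-box, occurred in 6 of 28 (21.4%), against 8.09% of all genes. Both strands were searched, and no matches of different motifs overlapped in these windows. A match is a description of the letters, and no match says only that these letters are not in the window.

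The comparison of day 4 with day 0 asks what the genes do as resting cells are activated. In the TLR culture 24 of the 35 genes rose and 1 fell by limma at an adjusted p under 0.05, where 48.5% of the 19398 genes tested passed in either direction. In the BCR culture 26 rose and 1 fell, where 50.7% of all genes tested passed. Both comparisons use the same 3 day 0 libraries. The sterol pathway moved almost as a block: 15 of its 18 genes rose in each culture and none fell, with a median difference of 2.08 in TLR and 2.32 in BCR cells on the log2 scale, where the median over all genes tested was 0.0067 in TLR cells. The 18 genes summed to 395 to 517 RPM at day 0, to 2700 to 2811 at TLR day 4 and to 3413 to 3492 at BCR day 4. Markers of cell division summed to 162.7 to 195.3 RPM at day 0 and to 3345 to 4902 over the 6 day 4 libraries, and their part in the result was not tested. Feeder fibroblast markers summed to 1.98 to 6.99 RPM at day 0 and to 94.6 to 318.5 over the same 6 libraries (29.3 to 106.5 without Thy1, the most abundant), and their part was likewise not tested. In the LPS culture those markers summed to 0.387 to 0.92 at day 4, with 7 to 8 of the 10 at 0.

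**Figure D1:**
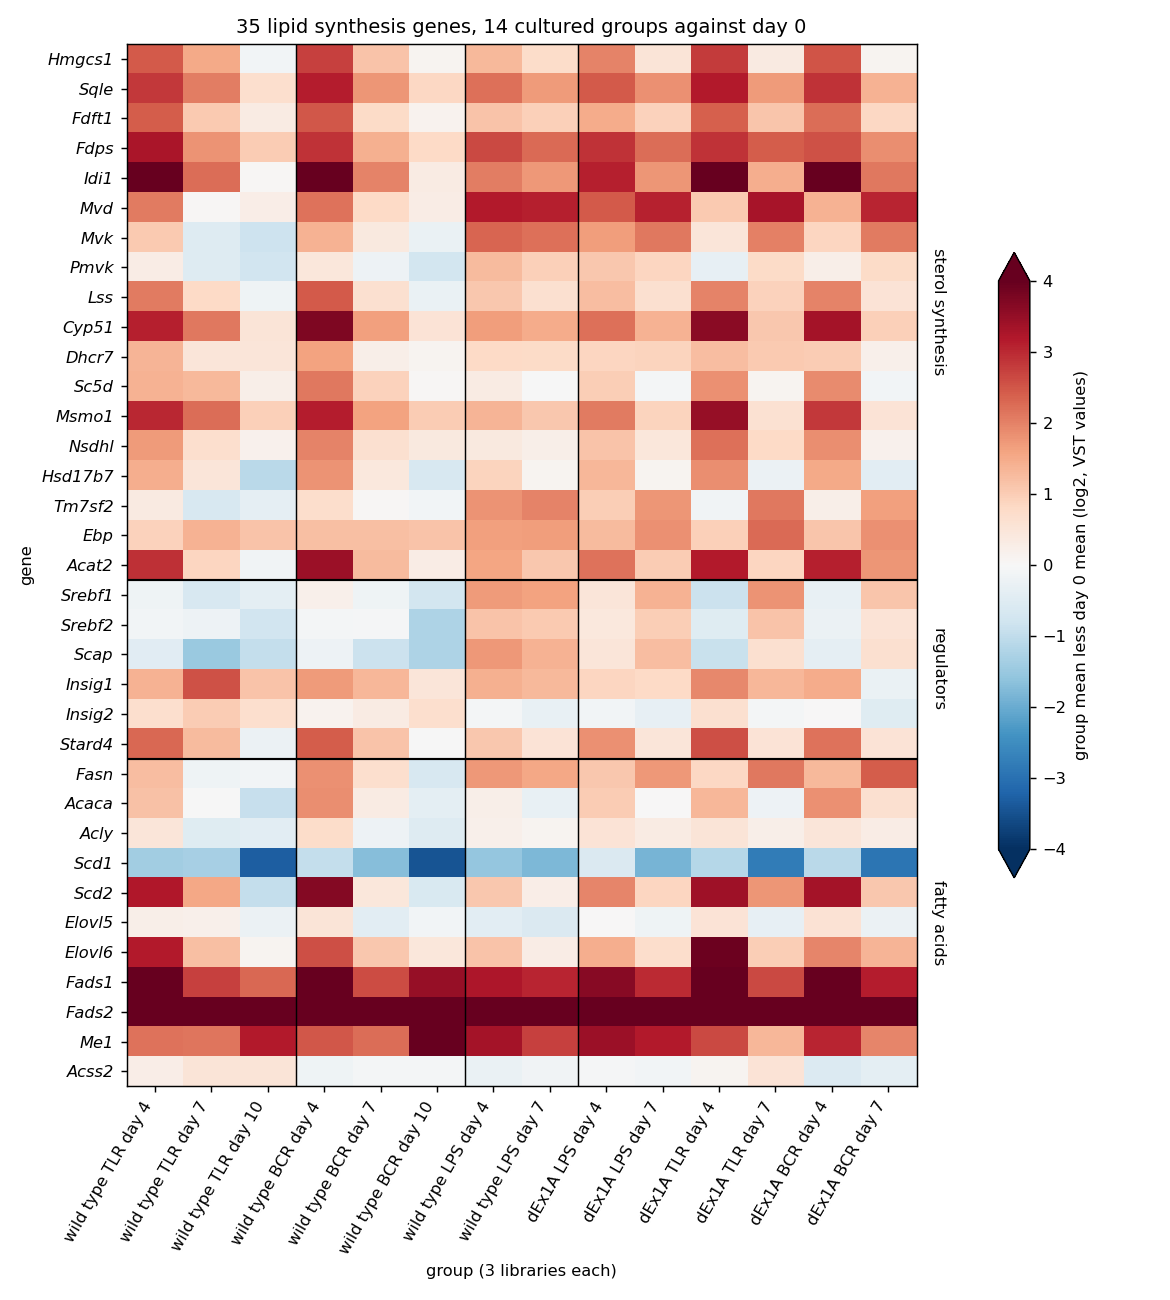
Difference of each group's mean from the day 0 mean for the 35 genes (rows, in the order sterol pathway, regulators, fatty acid synthesis) in the 14 cultured groups (columns), on the log2 scale of the deposited values, red higher and blue lower, with the colour scale ending at the arrows. The day 4 columns are red over most of the sterol pathway, Fads1, Fads2 and Me1 are red in every column, and Scd1 is blue in every column.

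Among the sterol genes, Idi1 changed most at day 4. Its log2 values were 8.93, 9.63 and 8.94 in the day 0 libraries, 12.98, 12.97 and 13.56 at TLR day 4 and 13.50, 13.36 and 13.93 at BCR day 4. All 6 day 4 libraries stood above all day 0 libraries, with differences of 4.00 ± 0.28 (SE, n = 3 per group, limma adjusted p = 2.23e-09) in TLR and 4.43 ± 0.28 (adjusted p = 5.39e-10) in BCR cells. Fdps, the farnesyl diphosphate synthase, read 8.27, 8.65 and 8.53 at day 0 and 11.96, 12.07 and 11.18 at TLR day 4. These did not overlap, and Fdps rose by 3.25 ± 0.28 (SE; limma adjusted p = 2.17e-08). Cyp51, the lanosterol 14-alpha demethylase, read 9.02, 9.71 and 9.37 at day 0, and 13.19, 12.86 and 13.27 at BCR day 4, a rise of 3.74 ± 0.20 (limma adjusted p = 4.94e-11). Acat2 read 8.01, 8.37 and 8.11 at day 0, and 11.65, 11.62 and 11.49 at BCR day 4, again with no overlap, a rise of 3.42 ± 0.14 (limma adjusted p = 1.83e-12). For Idi1 20.6% and for Acat2 40.5% of the 76-base stretches of their transcripts are shared with another gene (Gm13502 and Acat3), so reads could be split between copies, and for Fdps 9.14% are shared and 26.7% of its exons overlap Gm43738 on the same strand.

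The 3 sterol genes that did not pass in either culture were Mvk, Pmvk and Tm7sf2. Mvk, the mevalonate kinase, read 5.73, 5.85 and 6.15 at day 0 and 7.36, 7.72 and 5.82 at TLR day 4, where replicate 3 stood within the day 0 range and the other two above it. Mvd, which decarboxylates mevalonate diphosphate, read 6.31, 5.93 and 6.55 at day 0 and 8.92, 9.48 and 6.60 at TLR day 4. It rose by 2.07 ± 0.81 (SE; limma adjusted p = 0.043), and the call was lost without 5 of the 6 libraries in turn (adjusted p 0.0662 to 0.185). The GC content of both transcripts exceeds 55%, and TLR day 4 replicate 3 is the library in which GC-rich genes stood lowest of its group, with an offset of -1.51 against -0.27 and 0.014 in replicates 1 and 2. The part of that offset in the Mvd and Mvk values was not tested gene by gene.

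Regulators did not move together. GC content was 57.9 to 59.1% for Srebf1, Srebf2 and Scap and 43.9 to 48.2% for Insig1, Insig2 and Stard4, so role and GC content cannot be told apart. The genes for the SREBPs and for SCAP did not pass in either culture: Srebf1 differed by -0.18 ± 0.62 (SE) in TLR and 0.19 ± 0.62 in BCR cells, Srebf2 by -0.11 ± 0.33 and -0.09 ± 0.33, and Scap by -0.44 ± 0.46 and -0.21 ± 0.46. All 3 transcripts are GC-rich, and the signs of several of these values turned with a GC correction or without 1 library, as given in the closing section. The feedback gene Insig1 rose, from 10.15, 10.59 and 10.39 at day 0 to 11.78, 11.64 and 11.90 at TLR day 4 and 12.16, 11.92 and 12.20 at BCR day 4. The groups did not overlap, and Insig1 differed by 1.40 ± 0.21 (SE; limma adjusted p = 1.95e-05) and 1.72 ± 0.21 (adjusted p = 1.56e-06). Stard4, which carries sterol between membranes, rose by 2.30 ± 0.21 in TLR and 2.43 ± 0.21 in BCR cells (SE; limma adjusted p = 5.09e-08 and 2.34e-08). Insig2 passed in TLR cells, at 0.67 ± 0.18 (limma adjusted p = 0.00441), and differed by 0.15 ± 0.18 (adjusted p = 0.513) in BCR cells.

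Fatty acid genes showed the highest and the lowest changes of all 35. Fads2 had 1, 4 and 4 reads in the day 0 libraries, which places it near the lowest value the tables hold. Its log2 values were 3.48, 3.94 and 3.90 at day 0, 9.74, 9.99 and 8.70 at TLR day 4 and 9.87, 10.26 and 9.18 at BCR day 4. Every day 4 library lay far above every day 0 library. In RPM the ratio to day 0 was 329 (95% counting interval 173 to 719) in TLR and 371 (195 to 813) in BCR cells, an interval that covers counting error only, and the log2 differences were 5.70 ± 0.43 and 6.00 ± 0.43 (SE; limma adjusted p = 4.52e-09 and 2.16e-09). Fads1, the delta-5 desaturase beside it on chromosome 19 (GRCm38 19:10182888-10196877, plus strand; Fads2 lies at 19:10062765-10101746, minus strand), read 6.04, 5.95 and 6.18 at day 0, 10.11, 10.10 and 10.15 at TLR day 4 and 10.43, 10.33 and 10.36 at BCR day 4. The libraries of each group lay close together, and the differences were 4.06 ± 0.26 and 4.32 ± 0.26 (SE; limma adjusted p = 6.56e-10 and 2.81e-10). Me1, the malic enzyme that supplies NADPH, had 0 reads in the 3 day 0 libraries and 24 to 57 reads in the 6 libraries of day 4. Set against a floor of 3 reads per library at day 0, it was at least 9.75-fold higher in TLR and at least 13.1-fold higher in BCR cells. Of the 76-base stretches of its transcript 18.7% are shared with other genes, most of them with Gm7049 (15.6%), so its reads could be split.

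The stearoyl-CoA desaturases Scd1 and Scd2, neighbours on chromosome 19 (GRCm38 19:44394455-44407879, minus strand, and 19:44293674-44306864, plus strand), moved in opposite directions. Scd2 read 11.33, 11.47 and 11.12 at day 0, 14.49, 14.47 and 14.58 at TLR day 4 and 15.00, 14.89 and 15.06 at BCR day 4. Scd1 read 14.80, 14.86 and 14.73 at day 0, 13.32, 13.32 and 13.57 at TLR day 4 and 13.88, 13.66 and 14.02 at BCR day 4. For both genes the day 0 and day 4 libraries were separate, Scd2 being higher and Scd1 lower at day 4. Scd2 rose by 3.21 ± 0.14 in TLR and 3.68 ± 0.14 in BCR cells (SE; limma adjusted p = 2.9e-12 and 6.72e-13), and Scd1 fell by 1.39 ± 0.22 in TLR cells (adjusted p = 4.3e-05) and by 0.94 ± 0.22 in BCR cells (adjusted p = 0.00157). Of the 76-base stretches of their transcripts, 3.22% of Scd1 and 1.77% of Scd2 are shared with another gene. Elovl6, which elongates palmitate, read 7.21, 7.52 and 7.09 at day 0 and 10.41, 10.26 and 10.66 at TLR day 4, without overlap, a rise of 3.17 ± 0.21 (SE; limma adjusted p = 6.51e-10). Fasn, the fatty acid synthase itself, read 10.10, 9.81 and 10.33 at day 0 and 11.69, 12.15 and 10.10 at TLR day 4, where replicate 3 again stood in the day 0 range. It differed by 1.23 ± 0.61 (limma adjusted p = 0.105) in TLR cells and passed in BCR cells at 1.83 ± 0.61 (adjusted p = 0.0184), a call lost without 2 of the 6 libraries in turn (adjusted p 0.0592 and 0.0999).

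**Figure D2:**
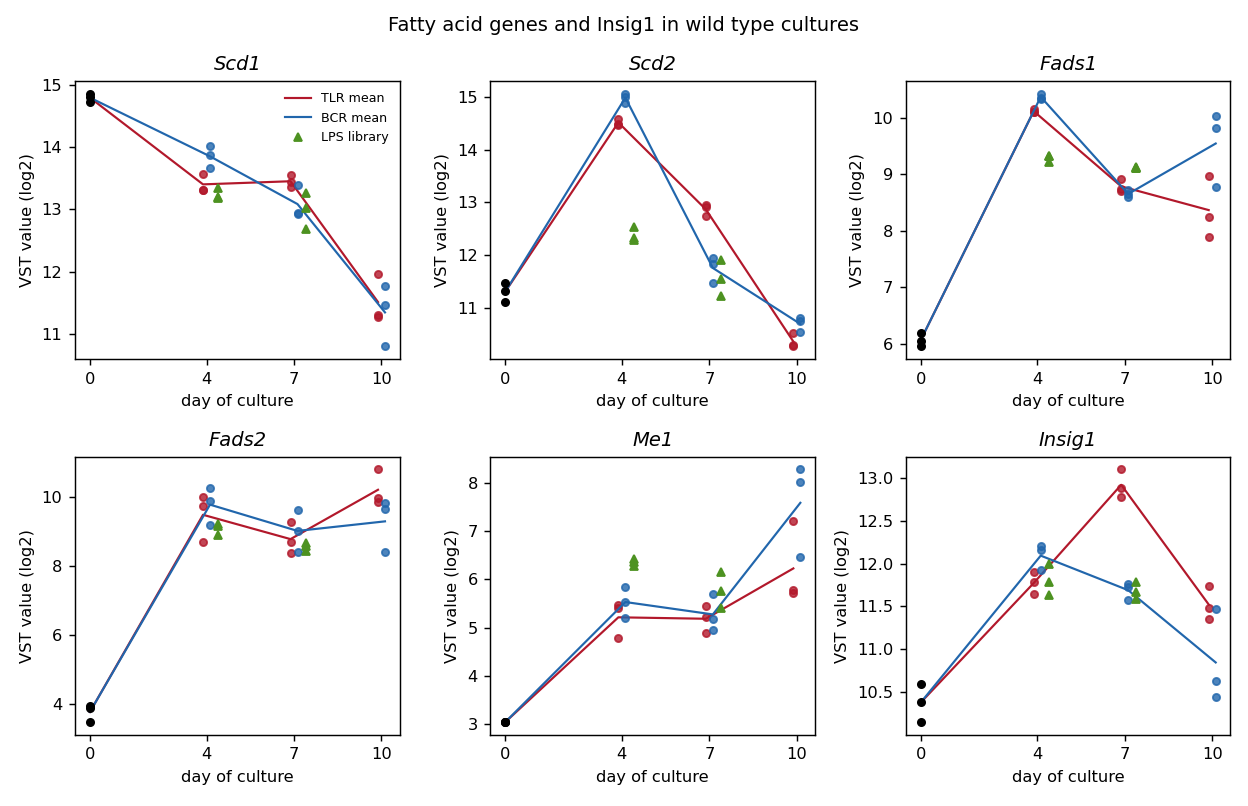
Log2 values (vertical axis) by day (horizontal axis) in each wild type library of the TLR and BCR cultures for 5 fatty acid genes and Insig1, with circles for libraries, lines through group means and triangles for wild type LPS libraries. Scd2 peaks at day 4, while Scd1 is highest at day 0 and Fads2 stays far above its day 0 values to day 10, and Insig1 peaks at day 7 in TLR cells and at day 4 in BCR cells.

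Between day 4 and day 7 many of the genes fell again. In the TLR culture 19 of the 35 genes fell and 1 rose (18.7% and 17.8% of all genes tested), and in the BCR culture 21 fell and none rose (15.3% fell and 15.3% rose). In each culture 13 of the 18 sterol genes fell, with median differences of -1.003 over the 18 in TLR and -1.40 in BCR cells. Acat2 dropped from 11.12, 11.21 and 10.94 at TLR day 4 to 8.84, 9.07 and 9.17 at TLR day 7, with no overlap, a difference of -2.06 ± 0.14 (SE; limma adjusted p = 3.4e-09). Idi1 dropped in the same culture to 11.52, 11.20 and 11.51, below each of its day 4 libraries, by -1.76 ± 0.28 (adjusted p = 9.35e-05 in limma), and in BCR cells to 11.50, 11.11 and 10.88, by -2.43 ± 0.28 (adjusted p = 3.3e-06). Both remained above every day 0 library. Cyp51 stood at 11.21, 11.03 and 10.78 at BCR day 7, below its day 4 libraries, a difference of -2.10 ± 0.20 (limma adjusted p = 2.92e-07). Elovl6 stood at 8.60, 8.17 and 8.68 at TLR day 7, a difference of -1.96 ± 0.21 from day 4 (limma adjusted p = 7.15e-07).

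Scd2 fell further in BCR than in TLR cells over this step. It read 12.91, 12.95 and 12.74 at TLR day 7 and 11.84, 11.48 and 11.95 at BCR day 7. The cultures did not overlap at day 7, and the falls from day 4 were -1.65 ± 0.14 in TLR and -3.23 ± 0.14 in BCR cells (SE; limma adjusted p = 3.9e-08 and 9.42e-11). Insig1 was the only listed gene that passed as higher in TLR cells. It read 13.10, 12.88 and 12.78 at TLR day 7, above all its libraries of day 4, and 11.76, 11.58 and 11.73 at BCR day 7, below all its libraries there. The change was 1.15 ± 0.21 in TLR cells (limma adjusted p = 0.000254) and -0.40 ± 0.21 in BCR cells (adjusted p = 0.153).

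The step from day 4 to day 7 was compared between the cultures directly, as the TLR change less the BCR change. Of the 35 genes 3 passed (1.70% of all genes tested): Scd2 at 1.58 ± 0.19 (SE; limma adjusted p = 0.000207), Insig1 at 1.55 ± 0.29 (adjusted p = 0.00745) and Sc5d, the sterol C5 desaturase, at 1.08 ± 0.23 (adjusted p = 0.0203). The calls of Scd2 and Insig1 held without each of the 12 libraries in turn. That of Sc5d was lost without 8 of the 12 in turn (adjusted p 0.0521 to 0.0727) and with libraries centred on their medians (adjusted p = 0.0829). With the number as a block within days 4 and 10 it passed (adjusted p = 0.00596), as did Cyp51 (1.10, adjusted p = 0.0134). At day 7 itself 3 genes were higher in TLR than in BCR cells and none lower (3.78% and 2.51% of all genes tested): Insig1 by 1.23 ± 0.21 (limma adjusted p = 0.0017), Scd2 by 1.11 ± 0.14 (adjusted p = 0.000109) and Insig2 by 0.69 ± 0.18 (adjusted p = 0.0273), the last lost without 5 of 6 libraries in turn (adjusted p 0.0537 to 0.147). With GC content and length trends removed 5 were higher and 1 lower.

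**Figure D3:**
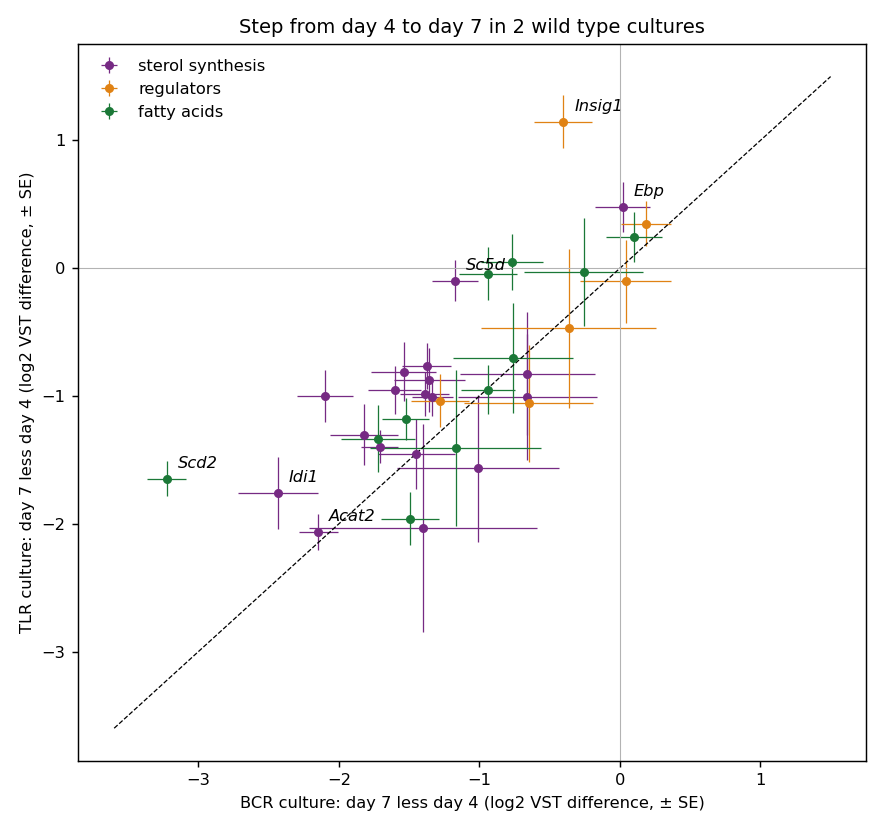
Change from day 4 to day 7 on the log2 scale for the 35 genes in wild type TLR cells (vertical axis) against BCR cells (horizontal axis), 1 point per gene, with the line of equal change. Most genes fall in both cultures, and Scd2, Insig1 and Sc5d, the genes whose steps differed by limma, lie above the line.

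At day 4 the cultures were compared in the same way. No gene was higher and 4 were lower in TLR than in BCR cells (4.34% and 3.31% of all genes tested). These were Sc5d (-0.72 ± 0.16, SE), Acaca, the acetyl-CoA carboxylase (-0.70 ± 0.17), Acat2 (-0.50 ± 0.14) and Scd2 (-0.47 ± 0.14), with limma adjusted p of 0.00952, 0.0134, 0.0364 and 0.0429. The calls of Acat2 and Scd2 were lost without each of the 6 libraries in turn (adjusted p 0.0523 to 0.143), and those of Sc5d and Acaca without 2 of the 6 (0.0507 to 0.0702). The count of 4 became 0 without BCR replicate 1, 1 without TLR replicate 1 or 3, and 2 without TLR or BCR replicate 2. Deviations of same-numbered TLR and BCR libraries correlated at 0.108, 0.945 and 0.958 at day 4 and at 0.474 to 0.502 at day 10. Pairing by number is thus not shown for every library. With the number as a block within those days, a setting added after the data were seen, 2 genes were higher and 5 lower at day 4. The 4 genes passed there (limma adjusted p 0.00263 to 0.0275), as did Cyp51 (-0.62, adjusted p = 0.0184), Insig2 (0.52, adjusted p = 0.0171) and Elovl6 (0.60, adjusted p = 0.0369). With GC content and length trends removed 2 were higher and 5 lower, and by voom 2 higher and 3 lower. Of the 76-base stretches of Acaca 47.2% are shared with Gm5182, so its reads could be split.

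From day 7 to day 10 the fall went on. In TLR cells 17 of the 35 genes fell and 1 rose (4.71% and 3.51% of all genes tested), and in BCR cells 16 fell and 2 rose (5.94% and 10.8%). Sterol genes made up 11 of the falls in TLR and 9 in BCR cells, and the 18 genes summed to 185 to 228 RPM at TLR day 10 and to 261 to 421 at BCR day 10, against 395 to 517 at day 0. On the deposited log2 scale their mean was 8.44 to 8.70 at TLR day 10 and 8.54 to 8.72 at BCR day 10, against 8.29 to 8.56 at day 0. The deposited values scale libraries otherwise than RPM does, so the RPM sums do not show a fall below the resting level. With only the BCR groups of days 7 and 10 in the model, none of the 35 passed by limma, while 21 had an unadjusted p under 0.05. Scd2 ended at 10.27, 10.29 and 10.53 at TLR day 10, below its day 7 libraries by -2.50 ± 0.14 (SE; limma adjusted p = 1.49e-08). Idi1 ended at 8.62, 9.29 and 9.73, below its day 7 libraries by -2.20 ± 0.28 (adjusted p = 0.000132) and overlapping day 0. Hmgcs1 ended at 9.49, 9.96 and 10.43, after 11.64, 11.50 and 11.59 at day 7, and it too overlapped day 0 (difference from day 7 -1.62 ± 0.19, limma adjusted p = 6e-05).

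Scd1 took its largest step down here in both cultures. It read 13.56, 13.36 and 13.44 at TLR day 7 and 11.31, 11.27 and 11.96 at TLR day 10, and 13.40, 12.94 and 12.92 against 10.80, 11.77 and 11.47 in BCR cells. No day 10 library reached a day 7 library, and the falls were -1.94 ± 0.22 and -1.74 ± 0.22 (SE; limma adjusted p = 4.98e-05 and 9.81e-05). Srebf2 fell in BCR cells by -1.19 ± 0.33 (limma adjusted p = 0.0182), from 11.30, 11.92 and 12.34 to 10.97, 10.46 and 10.57, without overlap. That call was lost without 3 of the 6 libraries in turn (adjusted p 0.0585 to 0.0944).

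The genes that rose to day 10 were Fads2 in TLR cells and Me1 and Fads1 in BCR cells. Fads2 read 8.36, 9.27 and 8.69 at TLR day 7 and 10.79, 9.96 and 9.85 at TLR day 10, a rise of 1.43 ± 0.43 (limma adjusted p = 0.0474) that was lost without 5 of 6 libraries in turn (adjusted p 0.0523 to 0.183) and with median centring, voom, no filter, the replicate block or only the groups compared (0.0535 to 0.0978). Me1 read 5.69, 5.18 and 4.95 at BCR day 7 and 8.28, 8.02 and 6.46 at BCR day 10, and Fads1 read 8.59, 8.72 and 8.65 against 10.04, 9.83 and 8.77. In both genes replicates 1 and 2 of day 10, the libraries with the most macrophage transcripts, stood well above replicate 3. Me1 rose by 2.31 ± 0.42 (limma adjusted p = 0.0015) and Fads1 by 0.89 ± 0.26 (adjusted p = 0.0262). Leaving those 2 libraries out leaves 1 BCR day 10 library, which is then assumed to vary like the other groups, and a call lost there is not shown to be absent. In that setting Me1 differed by 1.19 (adjusted p = 0.164) and Fads1 by 0.12 (adjusted p = 0.843), and 9 of the 35 genes passed in place of 18 (16.7% of all genes tested passed in either direction with all libraries). Scd1 and Scd2 passed in that setting too, at -1.62 (limma adjusted p = 0.000943) and -0.96 (adjusted p = 0.00532).

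**Figure D4:**
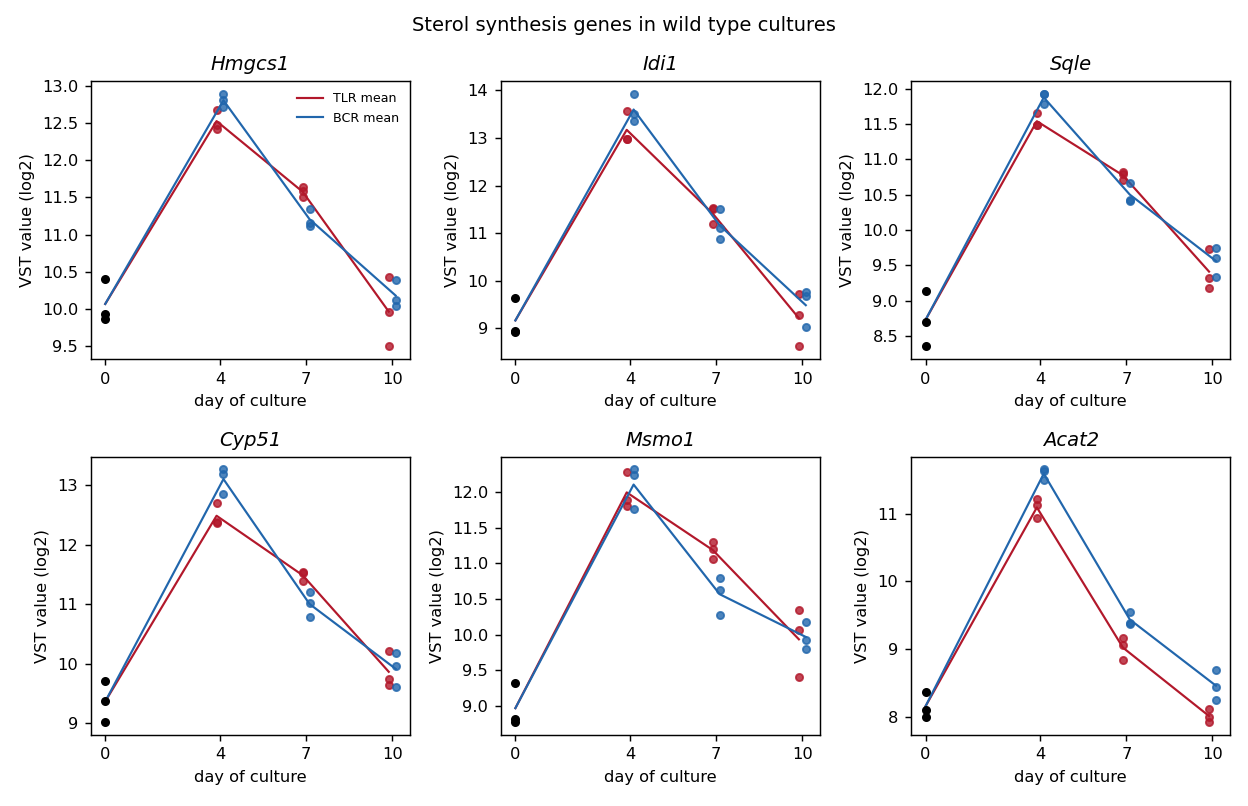
Log2 values (vertical axis) by day (horizontal axis) in each wild type library of the TLR and BCR cultures for 6 sterol pathway genes, with points for libraries and lines through group means. All 6 peak at day 4 in both cultures and lie lower at day 10 than at day 7.

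Over the 4 days sampled, group means of the log2 values were highest at day 4 for 25 of the 35 genes in the TLR culture and for 28 in the BCR culture. In each culture 17 of the 18 sterol genes had their highest mean at day 4, and the other, Ebp, the sterol isomerase, had it at day 7. Fads2, Me1 and Acss2 had theirs at day 10 in TLR cells. Acss2 differed by only 0.0033 between TLR days 7 and 10. All these days hold for the deposited log2 scale, and the day of the highest level can differ in RPM. Fads2, for example, stood at 46.3 RPM at TLR day 4 and at 27.4 RPM at TLR day 10. The ranking of days in RPM was not made for the other genes.

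Day 10 cells were also set against resting cells. At TLR day 10, 12 of the 35 genes were higher and 4 lower than at day 0 (23.0% and 23.2% of all genes tested), and at BCR day 10, 10 were higher and 6 lower (29.6% and 22.9%). This balance depends on the scaling: with libraries centred on their medians 7 were higher and 7 lower in TLR cells and 4 higher and 9 lower in BCR cells, and with GC content and length trends removed 14 were higher and 8 lower in TLR cells. The shares called, 16 of 35 each, lie near those of all genes (46.1% and 52.4%). Of the 35 genes Fads2 stood furthest above day 0 on the log2 scale in both cultures. In RPM it was 194-fold (95% counting interval 102 to 426) over day 0 at TLR day 10 and 156-fold (81.9 to 341) at BCR day 10. Me1 was at least 11.1-fold higher at TLR day 10, where its log2 values were 5.77, 7.20 and 5.71. It was at least 5.57-fold higher without replicate 2, the TLR day 10 library with the most macrophage transcripts. At BCR day 10 it was at least 49.8-fold higher, and at least 13.6-fold in replicate 3 alone, without the replicates rich in macrophage transcripts. Fads1 remained above day 0 by 2.31 ± 0.26 in TLR cells, with libraries at 7.89, 8.97 and 8.24, replicate 2 again the highest, and by 3.49 ± 0.26 in BCR cells (SE; limma adjusted p = 1.02e-06 and 5.75e-09). The part of macrophage transcripts in the TLR values of Me1 and Fads1 was not tested. Scd1 was furthest below, by -3.28 ± 0.22 and -3.45 ± 0.22 (adjusted p = 1.04e-09 and 6.28e-10 in limma). With replicate 3 as the only BCR day 10 library and the spread taken from the other groups, the BCR differences of Fads1 and Scd1 were 2.71 (limma adjusted p = 9.69e-07) and -3.33 (adjusted p = 3.72e-08). Hsd17b7, a sterol ketoreductase, was lower at 7.17, 7.21 and 7.23 in TLR day 10 libraries against 8.32, 8.41 and 8.14 at day 0, a difference of -1.09 ± 0.17 (limma adjusted p = 4.88e-05), and it went against Ebp (1.15 ± 0.19, adjusted p = 8.97e-05) and Msmo1 (0.97 ± 0.23, adjusted p = 0.00213).

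Between the cultures at day 10, 1 gene was higher and 4 lower in TLR than in BCR cells (4.31% and 10.0% of all genes tested, 14.3% together): Insig1 by 0.68 ± 0.21, and Me1, Fads1, Acaca and Acat2 by -1.36 ± 0.42, -1.18 ± 0.26, -0.53 ± 0.17 and -0.45 ± 0.14 (SE; limma adjusted p = 0.0359, 0.0403, 0.00904, 0.0423 and 0.0419). None of the 35 passed with BCR day 10 replicates 1 and 2 left out, which sets 3 TLR libraries against 1 with the spread of the other groups, nor without BCR replicate 2 or TLR replicate 1 alone, and 1 passed without TLR replicate 3 and 3 without TLR replicate 2 or BCR replicate 1. With the block within days 2 were higher and 5 lower, the 5 above at limma adjusted p 0.00197 to 0.0173, Acss2, the acetyl-CoA synthetase, at 0.59 (adjusted p = 0.0258) and Hsd17b7 at -0.46 (adjusted p = 0.0472). With GC content and length trends removed 4 were higher and 4 lower, and with median centring or voom 1 and 1. The step from day 7 to day 10 differed between the cultures in 1 gene of the 35 (0.0670% of all genes tested), Scd2, at -1.44 ± 0.19 (limma adjusted p = 0.00446). It did not pass when libraries were centred on their medians (adjusted p = 0.14) or with only the 4 groups in the model (adjusted p = 0.131), and it was -1.55 (adjusted p = 0.0228) with replicate 3 as the only BCR day 10 library. The count of 1 became 2 without TLR day 10 replicate 2 and 3 without BCR day 10 replicate 3.

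In the LPS culture most of the genes were also higher at day 4 than in resting cells. At LPS day 4, 28 of the 35 genes were higher and 2 lower (27.3% and 30.8% of the 20279 genes tested with both genotypes), 17 of the higher ones among the 18 sterol genes, with a sterol median of 1.47. These LPS libraries differ from those of day 0 in sex, age and depth, and GC-rich genes stood higher in them (offsets of 0.907 to 0.941 against -0.343 to 0.116 at day 0), so culture, sex, age and library cannot be told apart. All 7 genes with a GC content of 55% or more, a group set after the values were seen, were higher. They included Mvd, at 9.58, 9.33 and 9.38, above all day 0 libraries by 3.17 ± 0.70 (SE; limma adjusted p = 0.000267), Srebf1 by 1.70 ± 0.51 (adjusted p = 0.00556), Srebf2 by 1.13 ± 0.26 (adjusted p = 0.000525) and Scap by 1.72 ± 0.38 (adjusted p = 0.000296).

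Among genes under 55% GC, desaturases and Me1 were again far from day 0. Fads2 read 9.15, 8.90 and 9.20 at LPS day 4, 202-fold (95% counting interval 106 to 444) over day 0 in RPM. Me1 read 6.28, 6.43 and 6.36, at least 24.3-fold over its day 0 floor, and Fads1 read 9.32, 9.22 and 9.32, above day 0 by 3.23 ± 0.09 (SE; limma adjusted p = 9.83e-23). Scd1 again went the other way. It read 13.34, 13.18 and 13.20, below every day 0 library, by -1.56 ± 0.18 (limma adjusted p = 1.44e-08), while Elovl5, an elongase of polyunsaturated fatty acids, was lower by -0.43 ± 0.17 (adjusted p = 0.0301), a call lost without 4 of 6 libraries in turn (adjusted p 0.0565 to 0.089). From day 4 to day 7 of this culture 7 genes fell and none rose (3.68% and 4.76% of all genes tested). Scd2 went from 12.54, 12.33 and 12.28 to 11.91, 11.55 and 11.23 and fell by -0.82 ± 0.19 (SE; limma adjusted p = 0.00535), and Elovl6 went from 8.57, 8.31 and 8.33 to 7.69, 7.51 and 7.55 (-0.82 ± 0.22, adjusted p = 0.0142). Neither gene's groups overlapped, and the other 5 were Hsd17b7, Hmgcs1, Acaca, Acat2 and Sqle, the squalene epoxidase, at -0.77 to -0.49. The whole count rests on single libraries: none of the 35 genes passed without day 7 replicate 3, 1 without day 4 replicate 1, 2 without day 7 replicate 2 and 4 without day 4 replicate 2.

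The dEx1A comparisons ask what the deletion does at matched culture and day. The most closely matched of them is LPS day 7, where both genotypes have the same labelled sex and age and similar depth. There 1 of the 35 genes was higher in dEx1A cells and 1 lower (3.31% and 3.79% of all genes tested), with 2 and 1 once GC content and length trends were removed and 0 and 1 by voom. Insig1 read 11.12, 11.27 and 11.13 in dEx1A against 11.59, 11.67 and 11.78 in wild type libraries, and Scd2 read 12.40, 11.95 and 12.17 against 11.91, 11.55 and 11.23. Each pair of groups was separate, Insig1 being lower (-0.51 ± 0.15, SE; limma adjusted p = 0.0272) and Scd2 higher (0.61 ± 0.19, adjusted p = 0.0465) in dEx1A cells. Each call was lost without 4 of the 6 libraries in turn (adjusted p 0.07 to 0.309), namely wild type replicates 2 and 3 and dEx1A replicates 1 and 3.

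At LPS day 4, where sex and age also match but the wild type libraries are shallower, 12 genes were higher and 3 lower in dEx1A cells (12.6% and 11.8% of all genes tested), and 17 were higher and 1 lower with libraries centred on their medians. Idi1 read 12.64, 12.07 and 12.08 against 11.40, 11.11 and 11.15 in wild type libraries, and Scd1 read 14.55, 13.89 and 14.21 against 13.34, 13.18 and 13.20. Both were higher in every dEx1A library, by 1.04 ± 0.23 (limma adjusted p = 0.0011) and 0.98 ± 0.18 (adjusted p = 0.000186). The 3 lower genes were regulators: Scap (-1.24 ± 0.38, adjusted p = 0.017 by limma), Srebf2 (-0.71 ± 0.26, adjusted p = 0.0498) and Insig1 (-0.58 ± 0.15, adjusted p = 0.00378). Scap and Srebf2 are GC-rich and Idi1, at 41.9%, is the lowest in GC content of the listed genes. The 3 dEx1A libraries had GC offsets of -0.642 to 0.38 against 0.907 to 0.941, so genotype and GC offset cannot be told apart for these genes. With GC content and length trends removed, Srebf2 was at -0.24 and no longer passed (limma adjusted p = 0.0945), Scap was at -0.71 (adjusted p = 0.00828), Insig1 at -0.63 (adjusted p = 0.000521) and Scd1 at 0.86 (adjusted p = 1.29e-05). The Srebf2 call was lost in 5 of the 6 other settings tried (0.0508 to 0.0945), and that of Insig1 in 2 (0.063 to 0.102).

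At TLR day 4, 3 genes were higher and none lower in dEx1A cells (4.10% and 3.16% of all genes tested): Elovl6 by 0.76 ± 0.22, Insig1 by 0.51 ± 0.15 and Nsdhl, a sterol dehydrogenase, by 0.51 ± 0.15 (SE; limma adjusted p = 0.0271, 0.0271 and 0.0292). Each was lost without 4 of the 6 libraries in turn (adjusted p 0.0644 to 0.17), which were wild type replicates 1 and 2 and dEx1A replicates 1 and 3, and 6 genes passed without wild type replicate 3. These wild type libraries had GC offsets of -0.27 and 0.014, and these dEx1A libraries -1.71 and -1.93. Elovl6 (44.0% GC) and Nsdhl (45.8% GC) are GC-poor, and the part of the offsets in their calls was not tested gene by gene. With GC content and length trends removed 4 genes were higher and none lower. At BCR day 4 none of the 35 passed with limma (1.86% of all genes tested did), 6 had an unadjusted p under 0.05, and voom on the recovered reads called none. For TLR and BCR cells genotype cannot be told apart from sex and age.

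At day 7 of these cultures many genes passed, and the differences went with GC content. In TLR cells 12 genes were higher and 13 lower in dEx1A cells (26.2% and 28.7% of all genes tested), and in BCR cells 11 were higher and 11 lower (50.9% of all genes tested passed in either direction). The dEx1A libraries here are among the 15 shallow ones. Across the 35 genes the TLR difference had a Pearson correlation of 0.849 with GC content, the BCR difference one of 0.767 and the LPS difference at the same day one of -0.212, all given as descriptions over genes that share libraries. With GC content and length trends removed, 14 genes were higher and 8 lower in TLR cells. All 7 genes with a GC content of 55% or more were higher in TLR cells, and 9 of the 11 under 46% were lower. In BCR cells 5 of these 7 were higher and 7 of these 11 lower. Mvd read 9.37, 9.31 and 10.01 against 5.42, 7.13 and 6.35 in wild type TLR libraries, and Mvk 7.81, 7.74 and 8.20 against 4.73, 6.18 and 5.29. Mvd read 9.46, 9.29 and 9.38 in wild type LPS libraries of day 7. Genotype, depth and GC offset cannot be told apart in the TLR and BCR comparisons of this day. The Mvd difference was 3.26 ± 0.70 (SE; limma adjusted p = 0.000252), and 1.99 (adjusted p = 0.00126) with GC and length trends removed.

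**Figure D5:**
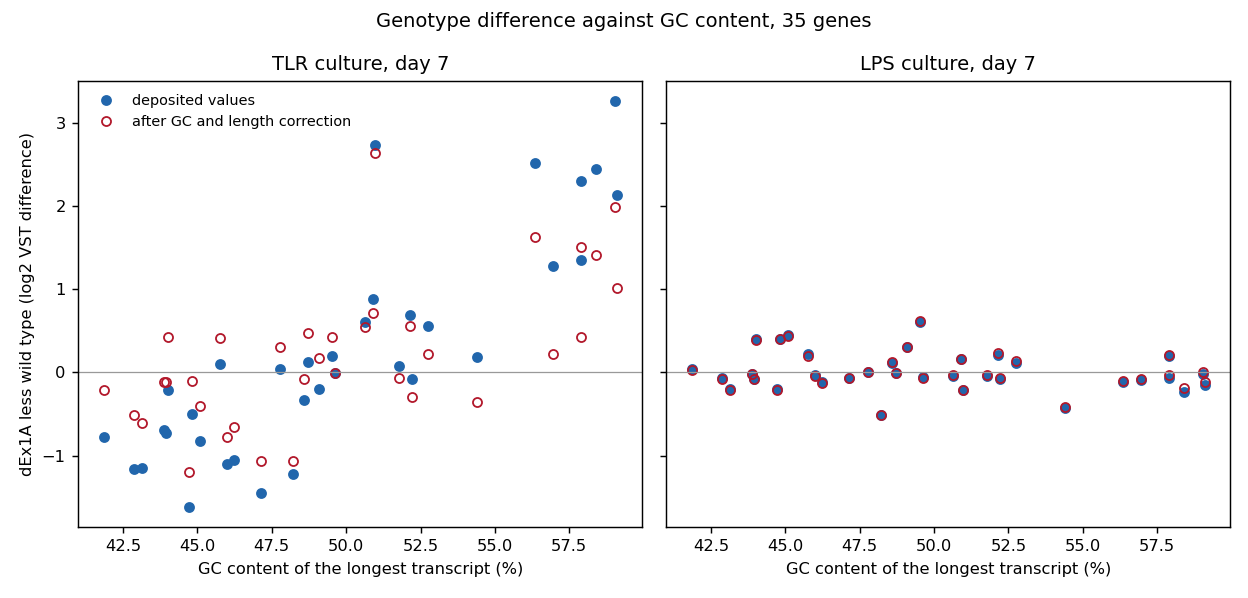
Difference between dEx1A and wild type cells at day 7 (vertical axis, log2) against the GC content of each gene's longest transcript (horizontal axis, percent) for the 35 genes, in TLR cells and in LPS cells, as deposited and with GC content and length trends removed. In TLR cells the GC-rich genes lie above 0 and most GC-poor genes below it, and the slope is smaller after the correction, while in LPS cells the points lie around 0.

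Genes under 55% GC whose difference stayed with the trends removed included Tm7sf2, which was higher, and Insig1, Scd1 and Msmo1, which were lower. Tm7sf2 (51.0% GC) differed by 2.74 ± 0.39 (SE; limma adjusted p = 1.59e-06) in TLR cells, and by 2.65 with the trends removed. In BCR cells it differed by 1.58 ± 0.39 (limma adjusted p = 0.00133). Tm7sf2 read 9.07, 9.23 and 9.80 in dEx1A TLR libraries, and 9.24, 9.21 and 9.32 in wild type LPS libraries of day 7. At TLR day 4 it read 8.07, 8.18 and 6.66 in wild type libraries, lowest in replicate 3, which had the lowest GC offset of that group. The part of library offsets in its values was not tested beyond the correction. Of its exons 12.1% overlap Vps51 on the same strand. Msmo1 (44.7% GC) belongs to the genes under 46%, most of which were lower in TLR cells. Insig1 read 11.76, 11.71 and 11.61 in dEx1A TLR libraries against 13.10, 12.88 and 12.78, and 9.90, 10.14 and 10.32 in dEx1A BCR libraries against 11.76, 11.58 and 11.73. It was lower in every dEx1A library, by -1.23 ± 0.15 in TLR and -1.57 ± 0.15 in BCR cells (SE; limma adjusted p = 7.49e-08 and 5.1e-10), and by -1.06 and -1.50 with the trends removed (adjusted p = 1.43e-07 and 1.14e-10). Scd1 read 12.05, 12.07 and 11.88 against 13.56, 13.36 and 13.44 in TLR cells, again separate, a difference of -1.45 ± 0.18 (limma adjusted p = 1.91e-07), and -1.06 with the trends removed (adjusted p = 2.07e-07). Msmo1 read 9.62, 9.78 and 9.32 against 11.30, 11.06 and 11.20, without overlap, a difference of -1.61 ± 0.19 (limma adjusted p = 9.47e-08), and -1.20 with the trends removed (adjusted p = 7.62e-08). Feeder markers summed to 287.1 to 430.4 RPM in dEx1A BCR libraries of day 7 against 22.1 to 27.6 in wild type ones, but Thy1 alone carried that difference (12.72, 12.73 and 12.19 against 7.95, 7.65 and 7.54 on the log2 scale). The other 9 feeder markers summed to 15.8 to 21.4 against 13.5 to 16.6 RPM. Macrophage markers summed to 452.1 to 2719 against 229.6 to 591.9 RPM. The part of these transcripts in the BCR differences was not tested.

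Within dEx1A cells the fall from day 4 to day 7 was seen again in all 3 cultures: 18 of the 35 genes fell and 1 rose in LPS (17.9% and 16.3% of all genes tested), 21 fell and 10 rose in TLR (32.8% and 29.4%) and 23 fell and 8 rose in BCR cells (27.8% and 26.3%). Fewer rose under other scalings: 5 in TLR and 3 in BCR cells with GC content and length trends removed (25 and 23 fell), and 3 in BCR cells with median centring (25 fell). Idi1 fell from 13.82, 13.50 and 13.90 to 10.75, 10.98 and 10.16 in TLR cells, by -3.11 ± 0.23 (SE; limma adjusted p = 2.57e-12). Hmgcs1 fell from 12.81, 12.40 and 12.53 to 9.89, 10.48 and 10.15 in BCR cells, by -2.41 ± 0.17 (limma adjusted p = 4.26e-12). Neither overlapped between the days. All 7 GC-rich genes were among the 10 that rose in TLR cells, where day 4 libraries had GC offsets of -1.93 to -0.392 and day 7 libraries 0.953 to 1.69. In BCR cells these offsets were -1.08 to -0.308 and 0.735 to 1.65. Idi1 (41.9% GC) and Hmgcs1 (43.1% GC) are GC-poor, so day and GC offset cannot be told apart in the size of their falls. Whether the genotype difference changed from day 4 to day 7 was tested too: 6 genes were lower and none higher in LPS (2.18% and 3.31% of all genes tested), 14 lower and 11 higher in TLR (25.1% and 24.4%) and 6 lower and 11 higher in BCR cells (17.5% and 16.4%). With median centring 18 were lower and 9 higher in TLR cells, and with GC content and length trends removed 3 were lower and 15 higher in BCR cells. The 6 LPS genes were 0 to 3 without wild type day 4 replicate 2 or 3, dEx1A day 4 replicate 1 or 3, wild type day 7 replicate 1 or 2, or dEx1A day 7 replicate 2 or 3. The 17 BCR genes (33.9% of all genes tested passed in either direction) were 10 without wild type day 4 replicate 2 and 11 without wild type day 7 replicate 1.

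Neighbouring pathways were counted in the same way, where 48.5% and 50.7% of all genes tested passed at day 4 of TLR and BCR cells, 23.0% and 29.6% were higher at day 10 than at day 0, and 10.8% rose from day 7 to day 10 in BCR cells. Of 10 genes that store, export or sense sterol, none rose and 6 fell at day 4 of each culture, among them Cyp27a1, a sterol 27-hydroxylase (-4.53 in TLR, limma adjusted p = 1.5e-11, and -4.45 in BCR cells, adjusted p = 1.9e-11). Abca1, the cholesterol exporter, differed by -5.54 in TLR cells (adjusted p = 6.7e-08 by limma), and Mylip, a ubiquitin ligase induced by LXR, by -4.99 in BCR cells (adjusted p = 7.5e-11). Of 17 tested partners of fatty acid synthesis 10 rose in each culture and none fell, the largest being Hacd1, a dehydratase of fatty acid elongation (3.14 and 2.97, limma adjusted p = 4e-07 and 7.1e-07). Of 11 genes of the isoprenoid branch, 4 rose and 2 fell in TLR and 7 rose and 2 fell in BCR cells. The other lists were mixed at day 4: 1 of 9 genes of SREBP activation rose and 3 fell in TLR cells, and 4 of 18 genes of glycerolipid synthesis rose and 6 fell. Genes of fatty acid oxidation were higher at day 10 than at day 0 for 6 of 14 genes in TLR and 11 of 14 in BCR cells, with none lower, Etfdh being the largest in BCR cells at 1.25 (limma adjusted p = 8.9e-06). In BCR cells 5 of the 10 sterol storage and sensing genes rose from day 7 to day 10 and none fell, led by Abcg1 at 2.92 (adjusted p = 0.0014 by limma) and Nr1h3, which encodes LXR alpha, at 2.48 (adjusted p = 0.0097). The part of macrophage transcripts in the day 10 values of these lists was not tested.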

How the data were processed

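RNA-seq was measured in 45 libraries of mouse B cells. The kit was TruSeq Stranded Total RNA with single reads of 76 bases, per the labels' protocols. The submitters' processing notes list the aligner STAR 2.6.0c, RSEM 1.3.0 and DESeq2 1.22.2 (run in R 3.5.1), beside Trim Galore 0.6.0 and FastQC 0.11.8. They name GRCh38.p12, GRCm38.p6 and mm10 with no role for each. Whether counting used strand is not given in the sources used here. Per-gene log2 values that the authors deposited follow a variance-stabilising transformation (VST), per the names of the tables. They come as a wild type table of 21 libraries and a table of 39 with both genotypes, with identical values in the 15 libraries they share. All columns were mapped to samples. One gene, Cnksr3, was dropped for a value below that of a count of 0.

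Groups followed the sample labels. Values above the floor of 3.045 by 1 or more in at least 3 libraries kept 19398 and 20279 genes. limma 3.58.1 in R 4.3.3 fitted group means over all groups of a table (14 and 26 residual degrees of freedom), with a mean-dependent prior, two-sided tests and Benjamini-Hochberg adjustment over all genes tested in each of 27 comparisons, and called an adjusted p under 0.05. Differences are on the log2 scale of the transformation, which compresses genes with few reads toward the floor. Inverting the VST gave back the reads of each gene: 93.7 to 100.0% of values under 20 reads came out whole within 0.1 per library. Totals of 15.13 to 35.53 M reads set the precision, and counting intervals (95%) cover counting error only. Chi-square per gene was 11.27 to 476.35 over the 45 pairs of libraries within groups, so no pair was a copy. The fit was also run on simulated counts that had the same relative spread for all genes and no GC offset. These libraries do differ in GC offset, so that run does not show how reliable the calls here are. Whether replicate numbers pair libraries was checked by the correlation of their deviations from group means: wild type TLR and BCR libraries of one number reached 0.108 to 0.958 at day 4 and 0.474 to 0.502 at day 10, and -0.152 to 0.838 at day 7, and the labels do not say what a number shares.

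GC content, length and positions came from GENCODE M21 (GRCm38). For the GC offset, each of 8893 protein-coding genes was set against its own mean over the libraries, and the median for the 25% poorest in GC was subtracted from that for the 25% richest. Per-library values are given for the called genes with the largest change and no overlap (at most 6 for activation and 4 for other steps) and for genes that went against their group. At most 2 genes are named for each list of neighbouring pathways. The genes and lists were chosen with earlier results of these data known. Alternatives were median centring, removal of GC and length trends, voom on recovered reads, no filter, only the groups compared, a replicate block, leaving out each library, or BCR day 10 replicates 1 and 2 together, and, added after the data were seen, a block within days 4 and 10.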

Additional observations from a re-analysis of the deposited data

Results flagged for a closer look

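The results here differ between groups by a test of the difference itself. The step from day 4 to day 7 differed between wild type TLR and BCR cells in 3 genes, Scd2 (1.58), Insig1 (1.55) and Sc5d (1.08), where a positive value on the log2 scale means that the TLR change was the more positive. The step from day 7 to day 10 differed in 1, Scd2 (-1.44).

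The genotype difference changed between day 4 and day 7 in 6 genes of the LPS culture: Scd1 (-1.04), Msmo1 (-0.93), Hmgcs1 (-0.88), Sc5d (-0.72), Acat2 (-0.65) and Fads1 (-0.48), each more negative at day 7. In TLR cells it changed in 25 genes, among them Msmo1 (-2.06), Insig1 (-1.74), Scd1 (-1.72) and Mvd (4.28). In BCR cells it changed in 17, among them Insig1 (-1.33), Scd1 (-1.08), Hmgcs1 (-0.80) and Mvd (3.04). Depth and GC offset differ between the day 4 and day 7 dEx1A libraries of all 3 cultures, and their part in these values was not tested beyond the correction for GC content and length. With that correction 19 genes passed in TLR and 18 in BCR cells.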

How the results depend on the processing

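Of 243 named calls, 185 held without any single library and 161 held in every setting tried. Over 260 named values, 1463 of 1614 values in other settings kept direction and side of the threshold, and 139 lost the call. Counts of genes passing among the 35 moved by over 1.5 times as follows. With median centring, which shifted the median of all genes by -0.38 to 0.18 on the log2 scale between comparisons, the count was 2 for TLR against BCR at day 4, 2 at day 10, 0 for the TLR less BCR step from day 7 to day 10, 0 for dEx1A against wild type at LPS day 7 and 8 at TLR day 4. With GC and length trends removed it was 7, 6 and 8 for TLR against BCR at days 4, 7 and 10, 5 for the TLR less BCR step from day 4 to day 7, and 1 for genotype at BCR day 4. Voom gave 2 for TLR against BCR at day 10 and 1 for genotype at LPS day 7. Without the filter it was 2 and 3 for TLR against BCR at days 4 and 10, 1 for genotype at LPS day 7 and 3 for the change of the LPS genotype difference. With only the groups compared it was 0 for BCR day 10 against day 7 by limma (21 genes at an unadjusted p under 0.05), 2 and 0 for TLR against BCR at days 4 and 10, 5 and 0 for the 2 TLR less BCR steps, 1 at LPS day 7 and 0 at TLR day 4 for genotype, 13 for genotype at BCR day 7 and 10 for the change of the BCR genotype difference. Without BCR day 10 replicates 1 and 2 it was 9 for BCR day 10 against day 7 and 0 for TLR against BCR at day 10. The cause of these shifts was not tested.

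Leaving out each library gave ranges for these counts. Against day 0 they were 24 to 28 and 24 to 27 (TLR and BCR day 4), 13 to 17 and 11 to 18 (day 10) and 28 to 30 (LPS). For day 7 against day 4 they were 18 to 24, 20 to 21 and 0 to 8 (wild type TLR, BCR and LPS) and 29 to 31, 23 to 31 and 17 to 18 in dEx1A cells, and for day 10 against day 7 they were 15 to 17 and 13 to 18. TLR against BCR gave 0 to 3, 2 to 3 and 0 to 7 at days 4, 7 and 10, and their steps 2 to 4 and 1 to 3. Genotype gave 10 to 15 and 0 to 2 in LPS, 0 to 6 and 20 to 24 in TLR, and 0 to 0 and 16 to 24 in BCR cells at days 4 and 7, and its change gave 0 to 7, 23 to 27 and 10 to 20. Among the named values, signs turned only for uncalled ones. With GC and length trends removed, Srebf1 and Srebf2 stood at 0.0023 and 0.0901 at TLR day 4, and Srebf2 and Scap at 0.15 and 0.0102 at BCR day 4. Without single libraries, TLR day 4 gave -0.62 to 0.46 for Srebf1, -0.30 to 0.20 for Srebf2, -0.76 to 0.0183 for Scap and -0.0383 to 0.83 for Pmvk, BCR day 4 gave -0.29 to 0.70, -0.35 to 0.19 and -0.55 to 0.13 for the first 3, and Fads2 from day 7 to day 10 in BCR cells gave -0.0233 to 0.73.

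Across days the numbers did not pair the libraries: deviations of wild type day 0, TLR and BCR libraries with the same number had a median correlation of 0.0337 over 63 pairs (-0.847 to 0.958). Between TLR and BCR cells within days 4 and 10 every same-numbered pair correlated positively, the weakest at 0.108 on day 4. There the replicate block within day gave 7 genes for TLR against BCR at day 4, 7 at day 10, and 4 and 1 for the steps, with no named call lost. With the replicate block over all days, counts were 26 for TLR and 26 for BCR day 4 against day 0, no count moved by over 1.5 times, and 4 of 260 named values lost their call. Genes with few reads, such as Me1 and Fads2 at day 0, are limited by depth, and 3 libraries a group limit the rest.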
